A study of Sus scrofa with 15 samples.

Results

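Nicotinic acetylcholine receptor subunits were followed in Longissimus muscle of 15 pigs. Among 43603 non-control probes of the arrays, 1 probe carried a file symbol that begins with a subunit name, that of CHRNA1. RefSeq's gene table for the pig, or the files' own description, named 4 more, for CHRNE, CHRNA5, CHRNA3 and CHRNB2, so 5 of the 16 subunit genes in that table were measured by 1 probe each, among 5456 named genes on the arrays. Probes for CHRNB1, CHRND, CHRNG and the other subunits were not analysed here. The probes were selected by gene name, but the family itself, with CHRNA1 and CHRNA5 at its centre, was chosen by values from these arrays, among them the scanner's detection flags and levels along a split by the number in the file names. The values below are therefore a description of these animals, not independent evidence.

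The pigs came from the low_RFI line (strain RFIneg, n = 7) and the high_RFI line (strain RFIpl, n = 8). Residual feed intake (RFI) is feed consumption above the amount predicted from growth and upkeep. All pigs were fed ad libitum and sampled at 20 kg body weight, with 1 pig per array, and the labels give no age. From each frozen sample, 150 ng of total RNA was amplified and labelled with Cy3 for a 1-colour Agilent array. The files carry 2 runs of numbers, 55-62 (7 arrays: 3 low_RFI and 4 high_RFI) and 1-8 (8 arrays: 4 of each line). The labels do not say what these numbers stand for.

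Nicotinic receptors are ion channels built from several subunits and opened by acetylcholine. In skeletal muscle they sit under the motor nerve ending, where the alpha subunit CHRNA1 joins CHRNB1, CHRND and either the fetal subunit CHRNG or the adult subunit CHRNE. In rodents, transcription of muscle subunit genes is confined to the nuclei under the nerve ending and spreads along the fibre after denervation. CHRNA3, CHRNA5 and CHRNB2 belong to receptors known mainly from neurons, with CHRNA5 as an accessory subunit that does not form a channel by itself.

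Each value rests on a single 60-base oligonucleotide, and the probes are printed below because they decide which transcript was read. All 5 are written 5′ to 3′ as the files give them, in lower case with no part marked.
CHRNA1: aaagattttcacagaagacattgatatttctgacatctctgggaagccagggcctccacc
CHRNE: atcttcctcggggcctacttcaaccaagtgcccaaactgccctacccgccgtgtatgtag
CHRNA5: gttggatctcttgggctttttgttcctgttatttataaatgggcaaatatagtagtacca
CHRNA3: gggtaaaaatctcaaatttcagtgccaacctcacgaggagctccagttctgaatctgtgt
CHRNB2: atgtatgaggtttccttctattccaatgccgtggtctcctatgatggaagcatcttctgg
The CHRNA5 probe had the lowest GC content at 35% and the CHRNE probe the highest at 56.7%, with 45% in the other three. The longest stretch shared with any of the 43602 other probes was 13 to 15 bases on the same strand and 13 or 14 bases on the opposite strand. No 2 subunit probes were therefore near copies of one another, nor of another probe on the array. Each probe had 1 spot per array, and none of these spots was flagged as non-uniform or saturated.

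A level below is log2 of the scanner's processed signal minus the 75th percentile of non-control probes on the same array, which places 0 at that percentile. The 75th percentile signal ran from 318.7 to 440.7 across arrays, and 61.7% to 79.5% of probes per array were well above background. Levels of different probes are not comparable with one another. The tissue label was checked on muscle fibre markers: 10 of 11 listed genes were measured, and their mean level was 9.01 to 9.50 in low_RFI and 8.92 to 9.49 in high_RFI pigs. In whole tissue, fewer cells of a type and less RNA per cell cannot be told apart. The number of arrays limits the precision of every value.

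The subunits differed in the number of arrays on which they were detected. The muscle subunits CHRNA1 and CHRNE were well above background on all 15 arrays, and so was CHRNB2, the beta subunit of the main brain receptor. CHRNA5 was well above background on 14 arrays, missing only low_RFI replicate 2 (6 of 7 low_RFI and 8 of 8 high_RFI pigs). CHRNA3, which binds acetylcholine in receptors of autonomic ganglia, was so on 4 arrays (1 of 7 low_RFI and 3 of 8 high_RFI pigs). Of all probes, 59.7% were well above background on all 15 arrays and 14.0% on none. Detection on every array was thus not particular to these subunits. The neuronal probes lay close to their local background: the median ratio of spot signal to local background was 1.77 for CHRNA5, 1.43 for CHRNA3 and 1.70 for CHRNB2, with ranges of 1.37 to 2.26, 1.01 to 1.74 and 1.14 to 2.37. For CHRNE that ratio was 12.4 (8.64 to 21.3) and for CHRNA1 2.95 (1.99 to 8.02).

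Between the lines, none of the 4 subunits tested was called by limma at an adjusted p under 0.05. A probe was tested when well above background on at least 7 arrays, which left out CHRNA3. Among all 31984 tested probes the share called was also 0%, with 6.64% at an unadjusted p under 0.05 and a smallest adjusted p of 0.107. Of the 4 subunits, 1 was under that unadjusted threshold, CHRNA5, with a lower mean in low_RFI pigs. No subunit had every pig of one line above every pig of the other, which held for 0.0782% of tested probes.

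The CHRNA1 level in low_RFI pigs ran from -3.38 to -1.09 (median -2.40), against -3.09 to -0.79 (median -2.05) in high_RFI pigs. The ranges overlapped over most of their length. Low_RFI pigs averaged -2.46 ± 0.73 (SD, n = 7), against -2.00 ± 0.96 (SD, n = 8) for high_RFI pigs, and the low_RFI pig was the higher in 21 of 56 pairs. The difference, low_RFI minus high_RFI, was -0.46 ± 0.41 (SE) on the log2 scale, with a 95% interval of -1.33 to 0.40 and a limma adjusted p of 0.940. It was -0.99, -0.51, -0.26 and 0.021 within slides 1 to 4. It moved to -0.69 without low_RFI replicate 7 and to -0.29 without high_RFI replicate 6.

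CHRNE, the subunit that marks the adult receptor, showed the smallest difference of the subunits tested. Its level in low_RFI pigs ran from -0.30 to 0.48 (median -0.078), against -0.32 to 0.92 (median -0.030) in high_RFI pigs. Low_RFI pigs averaged 0.029 ± 0.28 (SD, n = 7), against 0.074 ± 0.39 (SD, n = 8) for high_RFI pigs, a difference of -0.045 ± 0.17 (SE). The 95% interval of -0.41 to 0.32 holds differences of either sign, and the limma adjusted p was 0.995. High_RFI replicate 2, at 0.92, lay above every other pig.

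CHRNA5 was the subunit with the clearest separation of the lines. The 7 low_RFI pigs had levels of -3.78, -4.93, -4.31, -4.32, -4.94, -4.62 and -4.38, in the order of their replicate numbers. The 8 high_RFI pigs had levels of -3.87, -3.50, -4.52, -3.59, -3.79, -3.54, -4.07 and -4.24. Of the low_RFI pigs only replicate 1 lay above the high_RFI median of -3.83, and the low_RFI pig was the higher in 8 of 56 pairs. Low_RFI pigs averaged -4.47 ± 0.40 (SD, n = 7), against -3.89 ± 0.37 (SD, n = 8) for high_RFI pigs. The difference was -0.58 ± 0.19 (SE), or 0.668-fold, with a 95% interval of -0.98 to -0.18. Its unadjusted limma p of 0.00706 ranked 417 among the tested probes and became 0.541 after Benjamini-Hochberg adjustment, so it was not called. It was -1.08, -0.14, -0.80 and 0.028 within slides 1 to 4, and -0.74 within numbers 55-62 and -0.47 within 1-8. Processed signals of this probe were only 12.3 to 35.7, and with normexp background correction and its offset of 50 the difference was -0.27.

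CHRNA3 and CHRNB2 completed the neuronal subunits. CHRNA3 levels ran from -7.62 to -4.72 (median -5.87) in low_RFI and from -6.17 to -3.84 (median -5.14) in high_RFI pigs. Most of these values were below the detection flag, so no fold is given. CHRNB2 levels ran from -4.61 to -3.58 (median -4.28) in low_RFI and from -4.86 to -3.91 (median -4.10) in high_RFI pigs. The low_RFI mean of -4.19 ± 0.34 (SD, n = 7) and the high_RFI mean of -4.26 ± 0.37 (SD, n = 8) differed by 0.079 ± 0.18 (SE), with a 95% interval of -0.30 to 0.46 and a limma adjusted p of 0.990. The spread within each line exceeded that difference.

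**Figure D1:**
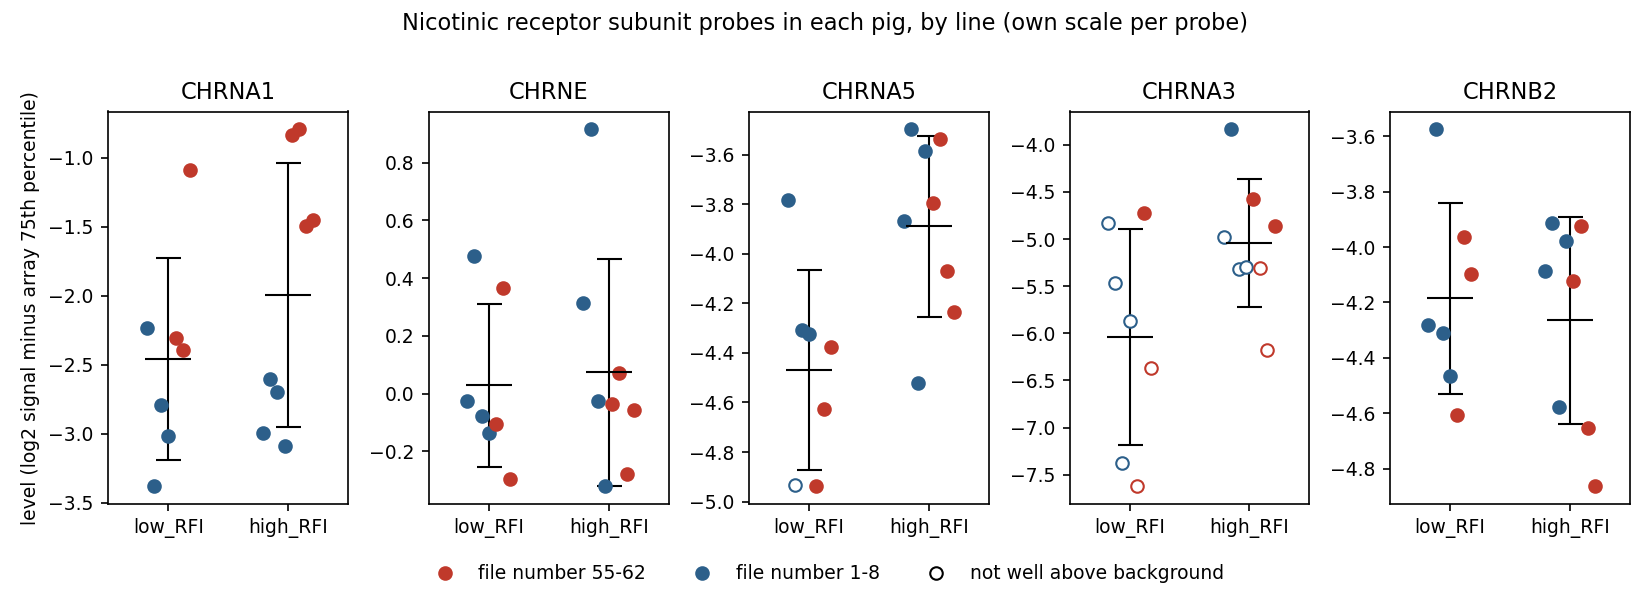
Level of each subunit probe (vertical axis, log2 signal minus the array's 75th percentile, own scale per panel) in low_RFI and high_RFI pigs, with 1 point per pig, the line mean and its SD as bars. Colour gives the run of file numbers and open points were not well above background, so 4 CHRNA3 points are filled, and the high CHRNA1 points are of numbers 55-62.

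The largest movement of a subunit ran along the file numbers and not along the lines. CHRNA1 levels in numbers 55-62 were -2.31, -2.40 and -1.09 in low_RFI pigs and -0.83, -0.79, -1.50 and -1.45 in high_RFI pigs. In numbers 1-8 they were -2.23, -3.38, -2.79 and -3.02 in low_RFI pigs and -3.00, -2.60, -2.70 and -3.09 in high_RFI pigs. The runs overlapped only through low_RFI replicate 1, whose -2.23 lay above the values of low_RFI replicates 5 and 6. The processed signals behind them were 75.9 to 247 in 55-62 and 37.7 to 83.9 in 1-8.

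The mean CHRNA1 level was -1.48 ± 0.65 (SD, n = 7) in 55-62 and -2.85 ± 0.35 (SD, n = 8) in 1-8. The difference of 1.37 on the log2 scale is 2.59-fold, and the pig of 55-62 was the higher in 54 of 56 pairs. With line means removed it was 1.34, larger in size than that of 99.3% of tested probes. No p is given, because this split was noticed in these arrays and the family was chosen partly by levels along it. The rank of CHRNA1 among tested probes is therefore a description, not evidence. A line-adjusted difference over 1 was found for 1 of the 4 tested subunits and 1.61% of tested probes, and no subunit's runs were free of overlap, as were those of 0.857% of tested probes (0.472% with 55-62 above and 0.385% below). With normexp the unadjusted difference was 0.627, still higher in 49 of 56 pairs.

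The run difference of CHRNA1 was seen in each line, at 0.92 in low_RFI and 1.70 in high_RFI pigs. In order of their means, high_RFI pigs of 55-62 stood at -1.14 ± 0.38 (SD, n = 4), low_RFI pigs of 55-62 at -1.93 ± 0.73 (SD, n = 3), high_RFI pigs of 1-8 at -2.85 ± 0.23 (SD, n = 4) and low_RFI pigs of 1-8 at -2.86 ± 0.48 (SD, n = 4). The first pair overlapped, as did the last pair, while the 2 high_RFI groups did not overlap each other. The line difference of CHRNA1 was thus -0.79 within 55-62 and -0.0086 within 1-8. The interaction of line and run was -0.78 ± 0.44 (SE), with an unadjusted limma p of 0.101 and an adjusted p of 0.927, so the line difference was not shown to differ between runs. It was -1.20 ± 0.38 (SE) without low_RFI replicate 7, with an unadjusted limma p of 0.00721 and an adjusted p of 0.721. Without low_RFI replicate 6 it was -0.55 ± 0.46 (SE), with an unadjusted limma p of 0.258 and an adjusted p of 0.997. These were the extremes when single arrays were left out. Low_RFI replicate 7 had the highest CHRNA1 level of the 3 low_RFI pigs of 55-62. The family was chosen partly by levels along these runs, so the p values of this interaction for subunits are a description, not independent evidence. With no array left out, 0% of tested probes were called for this interaction and 5.61% had an unadjusted p under 0.05, as did none of the 4 subunits.

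The run differences of the other tested subunits were smaller and of the opposite sign. The difference, 55-62 minus 1-8, was -0.19 for CHRNE, -0.12 for CHRNA5 and -0.17 for CHRNB2. CHRNA3 was well above background on 3 of 7 arrays in 55-62 and 1 of 8 in 1-8, so no difference is given for it. With line means removed, the run difference had a median of -0.035 over all tested probes. It was then -0.19 for CHRNE, -0.16 for CHRNA5 and -0.17 for CHRNB2. CHRNE averaged -0.047 ± 0.23 (SD, n = 7) in 55-62 and 0.14 ± 0.40 (SD, n = 8) in 1-8. CHRNA5 averaged -4.22 ± 0.48 (SD, n = 7) in 55-62 and -4.10 ± 0.50 (SD, n = 8) in 1-8. CHRNB2 averaged -4.32 ± 0.38 (SD, n = 7) in 55-62 and -4.15 ± 0.33 (SD, n = 8) in 1-8. These 3 differences were smaller than the SD within either run. With line means removed and single arrays left out, they ran from -0.28 (without low_RFI replicate 6) to -0.068 (without high_RFI replicate 2) for CHRNE. For CHRNA5 they ran from -0.28 (without high_RFI replicate 3) to -0.076 (without low_RFI replicate 1), and for CHRNB2 from -0.24 (without high_RFI replicate 6) to -0.079 (without high_RFI replicate 8). All 3 interactions of line and run had a limma adjusted p of 0.989.

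Of the 5 lists of markers of other cells, that of leukocytes had the largest median run difference. The median run difference was 0.97 for leukocytes, -0.0046 for nerve and Schwann cells, -0.014 for endothelium, 0.072 for adipocytes and -0.016 for satellite cells, with line means removed. Of 8 listed leukocyte markers 6 were measured, and their mean level was -1.73 to 0.12 (median -1.30) in 55-62 and -2.37 to -1.50 (median -2.01) in 1-8. PTPRC, the pan-leukocyte antigen CD45, averaged -2.50 ± 0.72 (SD, n = 7) in 55-62 and -4.01 ± 0.52 (SD, n = 8) in 1-8, without overlap. Its difference with line means removed was 1.52, and 0.354 with normexp. AIF1, a macrophage marker, was 1.07 higher in 55-62, and 1.03 higher with normexp and line means removed. The listed markers CD163 and CD14 were only 0.45 and 0.088 higher. With line means removed, CD3G and CD3E were 1.72 and 0.87 higher, and 0.35 and 0.25 higher with normexp. The leukocyte markers thus did not move alike. The nerve and Schwann cell markers, 9 of 17 tested, averaged -2.38 to -1.86 (median -2.20) in 55-62 and -2.57 to -2.16 (median -2.30) in 1-8. Of these, UCHL1, a neuronal enzyme picked here after its values were seen, was 1.16 higher in 55-62, the only one of the 9 with a line-adjusted difference over 1. STMN2 and PRPH, both made in neurons, differed by -0.26 and -0.30. Muscle fibre markers averaged 8.92 to 9.32 in 55-62 and 9.01 to 9.50 in 1-8. What part any of these cells had in the CHRNA1 difference was not tested.

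Within a run these markers related to CHRNA1 unevenly. Pearson's r with CHRNA1 was -0.29 for PTPRC, 0.33 for AIF1 and 0.81 for UCHL1 over the 7 arrays of 55-62. Over the 8 arrays of 1-8 it was 0.41 for PTPRC, 0.41 for AIF1 and 0.49 for UCHL1. These values describe few arrays that share a scale, and no p is given.

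MYH3, the embryonic myosin heavy chain made in developing and regenerating fibres, was among the 5 genes most like CHRNA1. After run means were subtracted, the genes of highest Pearson r with CHRNA1 over 15 arrays, out of 4489 named genes with a value on every array, were NNAT (0.88), IL18 (0.87), CDH1 (0.87), MYH3 (0.85) and PCBD1 (0.82). Spearman's rho for them was 0.82, 0.88, 0.83, 0.78 and 0.81, and the median r over all these genes was -0.075. Neuronatin (NNAT) is a small membrane protein, IL18 a cytokine, CDH1 the epithelial cadherin and PCBD1 a pterin dehydratase. For MYH3 the r was 0.93 within 55-62 and 0.60 within 1-8.

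The MYH3 levels are set beside those of CHRNA1 as a description. MYH3 is among the genes picked by their r with CHRNA1 in these arrays. Animals high for both genes partly follow from that choice and are not further evidence. In low_RFI pigs MYH3 was 2.45, 0.66 and 4.28 in 55-62 and 3.21, 1.20, 0.89 and 1.30 in 1-8. In high_RFI pigs it was 5.34, 5.44, 2.68 and 2.80 in 55-62 and 1.32, 0.55, 1.45 and 0.31 in 1-8. High_RFI replicates 5 and 6 were the highest for both genes, low_RFI replicate 7 came next for both, and low_RFI replicate 1 was the highest of 1-8 for both. MYH3 averaged 3.38 ± 1.73 (SD, n = 7) in 55-62 and 1.28 ± 0.88 (SD, n = 8) in 1-8, a 4.28-fold difference. On the log2 scale the difference was 2.07 with line means removed and 2.01 with normexp.

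**Figure D2:**
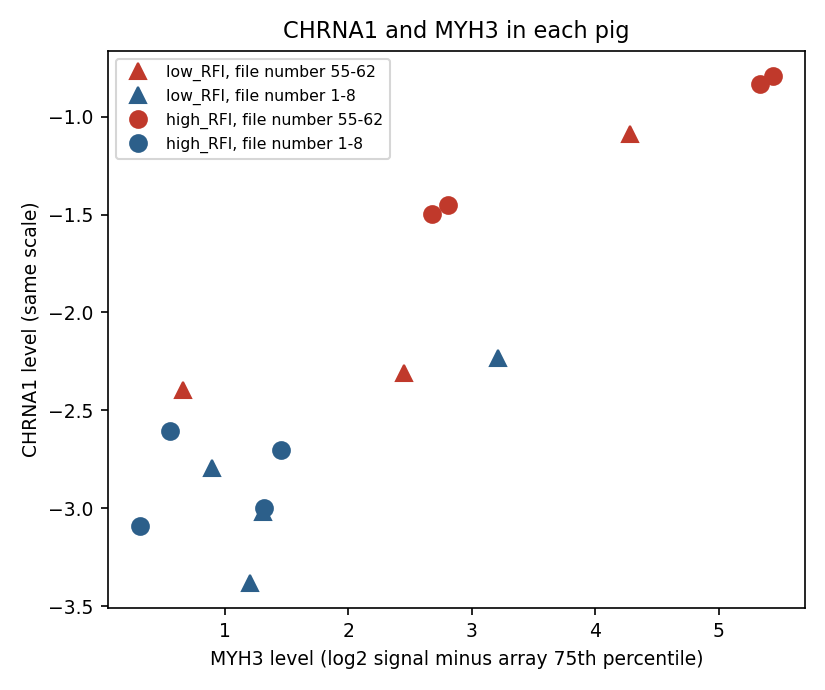
CHRNA1 level against MYH3 level in each pig (log2 signal minus the array's 75th percentile on both axes), with triangles for low_RFI, circles for high_RFI and colour for the run of file numbers. The pigs with the 3 highest CHRNA1 levels, all of 55-62, also had the 3 highest MYH3 levels. MYH3 is among the genes picked by their r with CHRNA1 in these arrays.

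**Figure D3:**
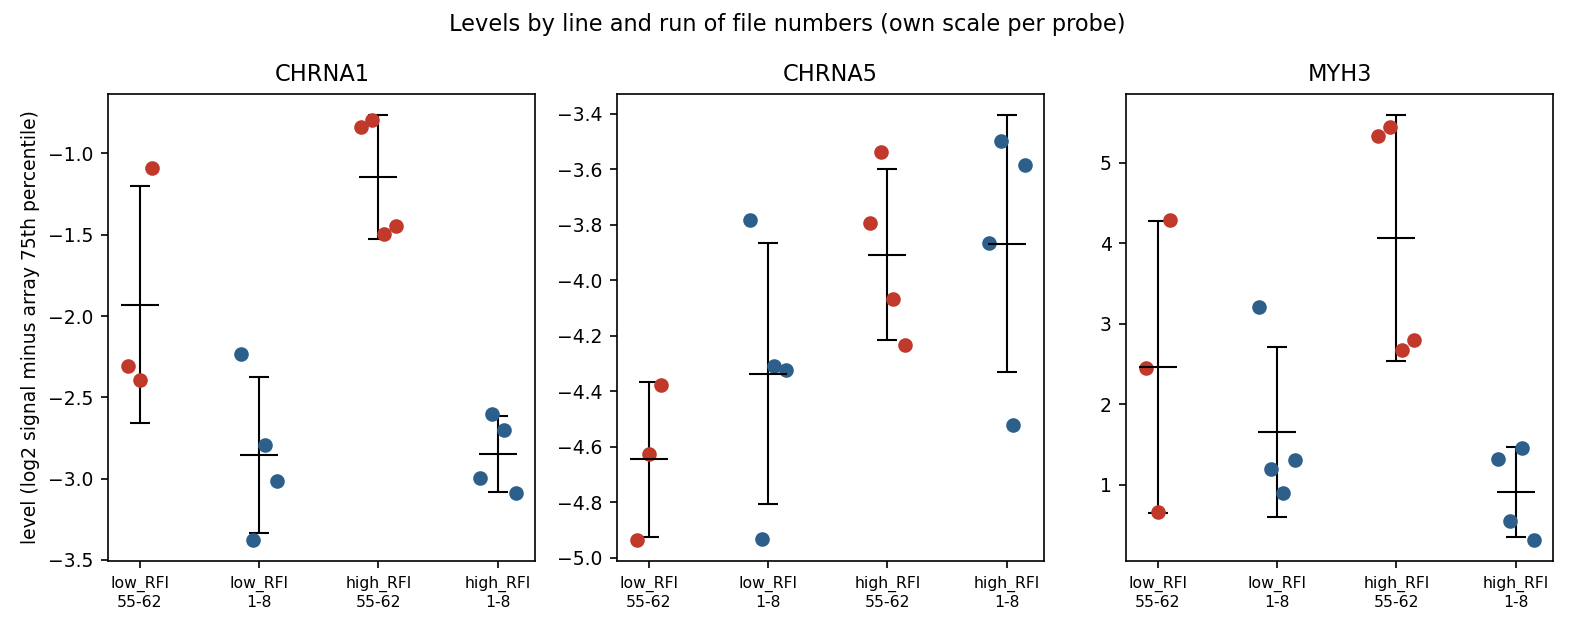
Levels of CHRNA1, CHRNA5 and MYH3 (log2 signal minus the array's 75th percentile, own scale per panel) in each line, split by file numbers 55-62 and 1-8, with 1 point per pig and bars for mean and SD. CHRNA1 and MYH3 lie higher in 55-62 in the high_RFI pigs without overlap, while the CHRNA5 runs overlap in both lines.

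The subunits themselves were related in part. CHRNA1 and CHRNA5, one a muscle and one a neuronal subunit, had an r of 0.68 over 15 arrays after run means were subtracted. Their r was 0.88 within 55-62 and 0.48 within 1-8. Line means were not subtracted, and within 55-62 the line difference was -0.79 for CHRNA1 and -0.74 for CHRNA5. CHRNA1 and CHRNE, which join in the same adult receptor, had an r of -0.15. CHRNE and CHRNB2 had an r of 0.51. CHRNA3, over mostly undetected values, had an r of 0.55 with CHRNE and of 0.53 with its chromosomal neighbour CHRNA5. The genes most like CHRNE were PPL, SYDE2, GAS2L1, HAL and CCDC6, with r of 0.89 to 0.94. Those most like CHRNA5 were C1H9orf16, COASY, INPP4A, DIAPH2 and TSHZ2, with r of 0.80 to 0.84. Those most like CHRNB2 were CBR2, ADORA1, TRIM35, TMEM67 and GZMM, with r of 0.79 to 0.83. Of the named genes compared, 2.94% had an r over 0.7 with CHRNE, 0.42% with CHRNA5 and 0.85% with CHRNB2. The signals of CHRNA5 and CHRNB2 lay close to local background.

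The genes that build the junction around the receptor showed no call between the lines. Of 44 listed junction genes 15 were tested, 0 were called by limma and 1 had an unadjusted p under 0.05. Among them 9 were higher in low_RFI, and the median difference was 0.047, beside 54.5% higher and a median of 0.014 over 4550 named genes, of which 0 were called. PPARGC1A, a coactivator that promotes junction gene transcription, had the smallest unadjusted limma p (0.045), with a difference of -0.40 ± 0.18 (SE) and an adjusted p of 0.744. The syntrophin SNTB1, which links dystrophin to membrane proteins, differed by 0.25 ± 0.18 (SE), and dystrophin itself (DMD) by 0.12 ± 0.11 (SE). The other tested DMD probes disagreed in sign, at 0.15, -0.24 and -0.23. The direct receptor partners RAPSN, MUSK, AGRN, LRP4, DOK7, ACHE, COLQ, UTRN and ERBB3 were not analysed here.

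Of 24 listed genes that control receptor gene transcription or respond to denervation, 12 were tested and 0 were called. In this list 2 genes were higher in low_RFI and 10 lower, with a median of -0.16. MYOD1, a myogenic factor that binds receptor gene promoters, ran from -1.44 to -0.18 (median -0.52) in low_RFI and from -0.32 to 0.21 (median -0.19) in high_RFI pigs, and the low_RFI pig was the higher in 6 of 56 pairs. Its difference was -0.54 ± 0.17 (SE), with an unadjusted limma p of 0.00622 and an adjusted p of 0.538. MYOG, the related factor that drives receptor genes after denervation in rodents, differed by -0.028 ± 0.11 (SE), and its second probe by 0.046. FBXO32, a ubiquitin ligase of muscle atrophy, differed by -0.26 ± 0.38 (SE) between lines and was 0.99 higher in 55-62 than in 1-8. A line-adjusted run difference over 1 was found for 1 of these 12 genes, MYH3, for none of the 15 junction genes and for 1.61% of tested probes. GADD45A, also of this list, and FBXO32 lay just under that limit, at 0.999 and 0.97, so MYH3 did not stand alone.

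Of 14 genes of receptor assembly and surface delivery 4 were tested and 0 were called. JAK2, a kinase of cytokine signalling, differed by 0.37 ± 0.15 (SE), with an unadjusted limma p of 0.024 and an adjusted p of 0.688, while a second JAK2 probe gave -0.019. In the gene table CHRNB4, CHRNA3, CHRNA5, PSMA4, HYKK and IREB2 follow one another on the chromosome. Neighbours of subunit genes were tested for 7 of 16 listed genes and 0 were called. The neighbours of CHRNA5 differed by -0.0090 (PSMA4, a proteasome subunit), 0.0054 (HYKK, hydroxylysine kinase) and -0.092 (IREB2, which regulates iron metabolism), each less than its SE. Further probes of these genes gave 0.066 and 0.077 (PSMA4), 0.15 (HYKK) and 0.015 (IREB2). Other listed neighbours differed by more than their SE: SLC25A11 by -0.32 ± 0.15 (SE), MORF4L1 by 0.22 ± 0.11 (SE) and GP1BA by 0.13 ± 0.075 (SE). A second MORF4L1 probe gave 0.0059, and EIF4E2 differed by -0.033 ± 0.13 (SE).

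**Figure D4:**
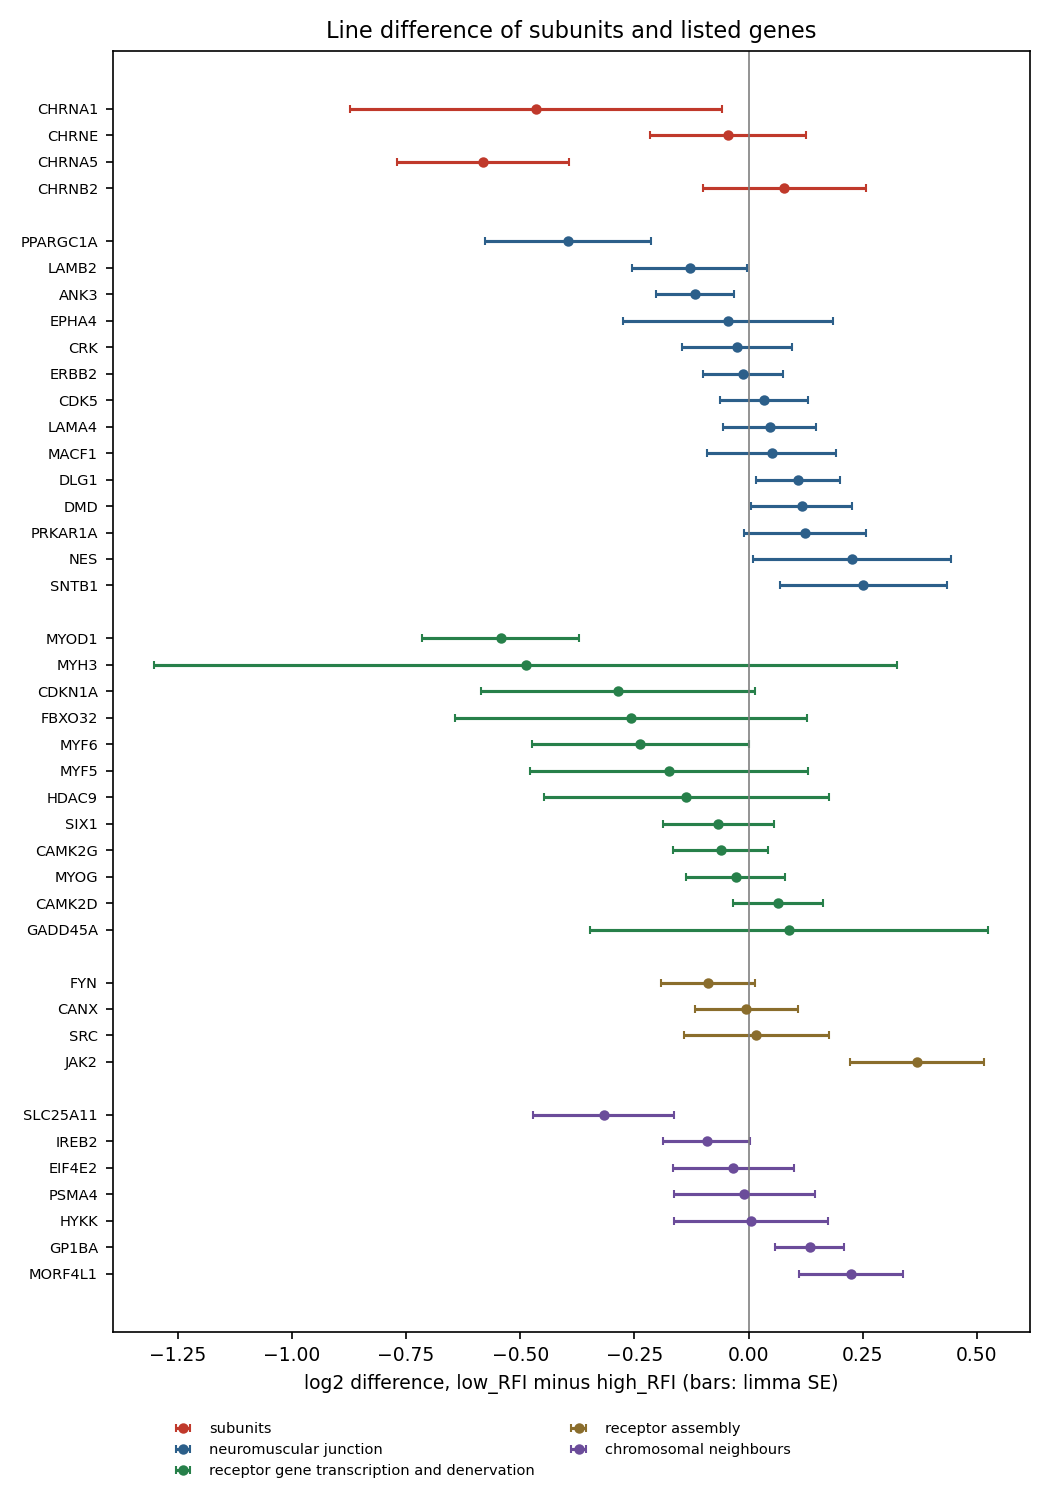
Log2 difference, low_RFI minus high_RFI, of the 4 tested subunits and the tested genes of 4 lists, save 1 junction gene (horizontal axis), 1 row per gene with the limma SE as a bar and colour for the list. CHRNA5 at -0.58 and MYOD1 at -0.54 lie farthest from 0, and no gene shown was called.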

How the data were processed

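Per the file headers, the scanner files hold intensity values that Feature Extraction 10.7.3.1 had background-subtracted under protocol GE1_107_Sep09, not normalized between arrays. Other columns, per the file headers, carry flags for detection above background, for non-uniformity and for saturation. The authors' deposited table holds log2 values, found here to equal log2 processed signal minus the array's median over 29364 features, with a largest difference of 4.93e-08. Scale and centring are thereby known, and all column medians were 0. It lists 4 of the 5 subunits and served as an alternative. R 2.10.0 is named in the submitters' processing notes.

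Control and non-uniform spots were left out and spots of 1 probe averaged. The processed signal, on the log2 scale and less the 75th percentile of its array, was tested for 31984 of 43603 probes, those well above background on at least 7 of 15 arrays with at least 4 values in each line. Lines were compared by a two-sided limma fit (version 3.58.1, run in R 4.3.3) with lmFit and eBayes and Benjamini-Hochberg adjustment over all tested probes. Names came from the files' symbols (8694 probes), a RefSeq gene table of Sscrofa11.1 (3494) or the files' descriptions (32), and 31383 probes had several names or none. CHRNE was named by description. Where several tested probes had 1 gene, the brightest on average stood for it. All 5 subunit probes are named, with up to 6 genes of smallest p per list, the direct receptor partners where measured and the 5 genes of highest r per subunit. The members and lists were chosen with earlier results of these data known. Slide, file numbers, replicate number, background correction, normalization, filters and single arrays were varied. Some genes of the lists are counted but not reported by themselves here. Replicate numbers did not pair the samples.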

Additional observations from a re-analysis of the deposited data

How the results depend on the processing

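No subunit was called between the lines in any of the 27 alternatives, in which 0 tested probes were called except 1 with no filter on dim probes and 2 without low_RFI replicate 7. The difference of CHRNA1 stayed negative throughout (-0.69 to -0.29), as did that of CHRNA5 in the 26 alternatives that tested it (-0.70 to -0.27, limma adjusted p 0.441 to 0.866). CHRNE and CHRNB2 were too close to 0 to hold a sign. Leaving out single arrays gave -0.12 to 0.075 for CHRNE, with 0.0092 without low_RFI replicate 7 and 0.075 without high_RFI replicate 2, and -0.023 to 0.15 for CHRNB2, with -0.023 without low_RFI replicate 2 and -0.0066 without high_RFI replicate 8. CHRNB2 was -0.12 with normexp. With the replicate block, in which high_RFI replicate 8 has no partner and drops out, CHRNB2 was -0.0066 and no call changed. Same-numbered pigs correlated over 0.1 in 5 of 7 pairs (-0.012 to 0.27), and in 1 of 7 once run means were removed (-0.13 to 0.12). The line-adjusted run difference of CHRNA1 was 1.22 to 1.49 without single arrays and 0.604 with normexp, which compresses dim signals by its offset. The line by run interaction of CHRNA1 was -1.20 to -0.55 without single arrays, that of CHRNE was -0.0066 to 0.40 without single arrays, and that of CHRNB2 was -0.035 with normexp. The median of the junction genes was 0.041 to 0.045 in its 3 alternatives. CHRNA5, flagged on 14 arrays, had no test where all 15 were required.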

Other observations

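Muscarinic receptors, the other family opened by acetylcholine, were looked up after the subunit values were seen. CHRM1 was measured by 2 probes, well above background on 14 and 15 arrays, and CHRM3 was so on 3 arrays and CHRM2 on none. The CHRM1 probes differed by -0.17 and -0.10 between low_RFI and high_RFI pigs, with limma adjusted p of 0.978 and 0.980. Their differences between file numbers 55-62 and 1-8 were -0.10 and -0.23. Among the 5 nicotinic probes no pig was flagged as an outlier of its line. Of the 10 sets of levels, 1 per probe and line, none had its highest or lowest value beyond Dixon's 95% limit. Each set pooled both runs of file numbers, which widened the range for CHRNA1, so the check cannot show that no pig stood apart.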
